A study of Homo sapiens with 14 samples.

Results

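LYZ, the gene of lysozyme, was followed across 14 RNA-seq libraries of the human leukaemia cell lines MV4;11 and EOL-1, 2 libraries in each of 7 groups. It was chosen by name, with its values in these libraries already known, and is 1 of the 13720 gene rows that all 3 deposited tables share. Its levels, ranks and changes are therefore given as a description, with no test. The question the series poses is what the transcriptome does when EZH2, the histone methyltransferase of the Polycomb complex PRC2, or the transcription factor cMyc (MYC) is depleted.

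MV4;11 is a myelomonocytic line with a KMT2A-AFF1 fusion, and EOL-1 comes from an eosinophilic leukaemia. All 7 groups, controls included, received 1 µg/ml doxycycline for 4 days. In MV4;11, cells labelled shEZH2 stood beside a control labelled EV, and cells with the sgRNAs sgcMyc guide 1 or guide 5 stood beside a control labelled sgEV. In EOL-1, cells labelled sgEZH2 stood beside an sgEV control of that line. The column names add that the hairpin was called sh5 and the EOL-1 guide sg1. Each depletion of EZH2 thus rests on 1 hairpin or 1 guide, and whether a library came from a clone or a pool is not stated. Whether replicates were separate cultures is not stated, so p-values here reflect library-to-library spread that may be technical. The tables held 13313052 to 16274568 gene counts per library in MV4;11 and 24574102 to 30256823 in EOL-1.

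Lysozyme cuts the sugar backbone of peptidoglycan, the polymer of the bacterial cell wall. In blood it is made by monocytes, macrophages and granulocyte precursors, which store it in granules and secrete it, and leukaemias with monocytic maturation are known for releasing large amounts. The fragments it frees are read by pattern receptors such as NOD2. Of the 10 other genes of the lysozyme family that were looked for, such as LYZL1, LYG1 and LALBA, none had a row in any of the 3 tables, so LYZ was the family's single measured member.

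LYZ was readily measured in all 3 controls and was higher in every group with the EZH2 hairpin or a targeting guide. Levels are in CPM, gene counts scaled to a common library size by TMM within each table. In the MV4;11 sgEV libraries LYZ stood at 159 and 158 CPM, from estimated counts of 2116 and 2105. In the MV4;11 EV libraries it stood at 186 and 202 CPM, from counts of 2984 and 3055. In the EOL-1 sgEV libraries it stood at 202 and 195 CPM, from counts of 5518 and 5951. The controls of both lines thus lay close together, although they came from lines of different origin.

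In the shEZH2 libraries of MV4;11 LYZ stood at 497 and 506 CPM, from counts of 8014 and 8035. In the sgEZH2 libraries of EOL-1 it stood at 1625 and 1653 CPM, from counts of 43525 and 39981. Every library with EZH2 depleted lay above every control library, and EOL-1 lay above MV4;11. The libraries labelled sgcMyc guide 5 held 3382 and 3485 CPM, from counts of 47656 and 48429. The libraries labelled sgcMyc guide 1 held 3706 and 3724 CPM, from counts of 53819.6 and 55799, and were the highest of all 14.

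**Figure D1:**
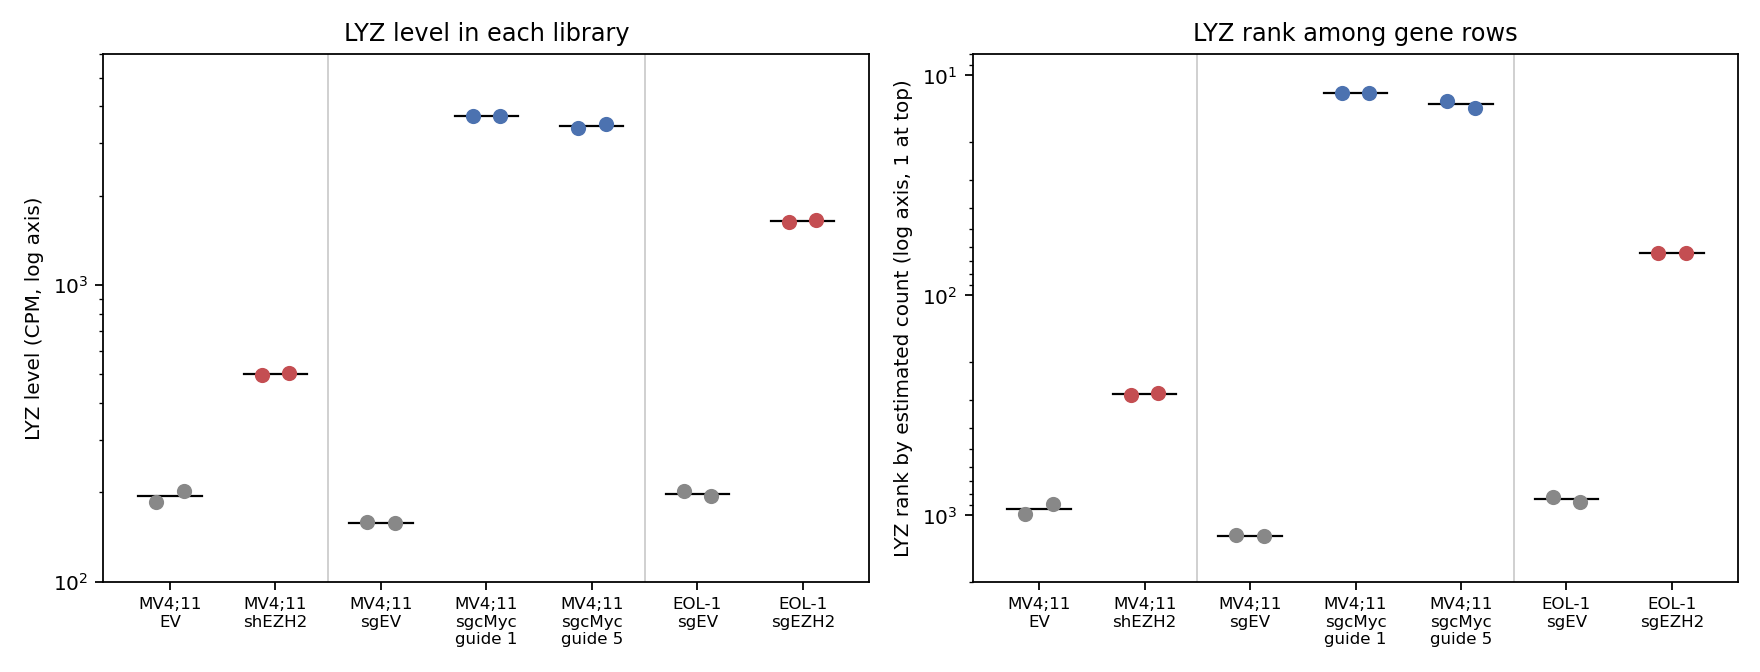
LYZ in each of the 14 libraries, as CPM on a log axis (left) and as rank by estimated count among all gene rows on a log axis with rank 1 at the top (right). Points are libraries, bars are the mean of each group of 2, grey marks controls, red EZH2 depletion and blue the sgcMyc guides, and vertical lines separate the tables. The controls sit between 158 and 202 CPM and all libraries with the EZH2 hairpin or a targeting guide sit at 497 CPM or more.

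Ordered by mean level (± SD, n = 2), LYZ stood at 158.1 ± 0.679 CPM in MV4;11 sgEV, 194 ± 11.1 in MV4;11 EV, 198 ± 4.81 in EOL-1 sgEV, 502 ± 5.91 in shEZH2, 1639 ± 19.7 in EOL-1 sgEZH2, 3433 ± 72.9 with guide 5 and 3715 ± 13.2 with guide 1. The EV group of MV4;11 and the sgEV group of EOL-1 overlapped, and their means, apart by a factor of 1.02, differed by less than the SD of either group. No other neighbours in this order overlapped. The MV4;11 controls were among them, with EV at 1.23 times the level of sgEV. The order spans 3 tables that were scaled apart from each other. With 1 TMM scaling over all 14 libraries EOL-1 sgEV read 216.1 CPM beside 189 for EV and 153.7 for sgEV, so how close the controls of the lines lie depends on the scaling.

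As a share of all gene counts, LYZ took a mean of 0.0158% in MV4;11 sgEV, 0.0196% in EV and 0.02% in EOL-1 sgEV. It took 0.0496% in shEZH2, 0.1625% in EOL-1 sgEZH2, 0.343% with guide 5 and 0.371% with guide 1. The share with guide 1 was thus more than 20 times that of sgEV. In these bulk libraries, more cells that make LYZ and more LYZ RNA per cell cannot be told apart.

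Among all gene rows ordered by estimated count, LYZ moved into the top 20 with either cMyc guide. Its ranks were 1230 and 1238 of 15025 rows in the MV4;11 sgEV libraries. They became 12 in both guide 1 libraries, and 13 and 14 in the guide 5 libraries. In the other MV4;11 table the ranks went from 982 and 888 with EV to 284 and 278 with shEZH2. In EOL-1, with 15031 rows, they went from 821 and 869 with sgEV to 64 in both sgEZH2 libraries.

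LYZ is a short transcript, so its rank by count understates its place per unit of length. The longest LYZ transcript in the GENCODE release 29 annotation has 1530 bases. Ranked by counts per kilobase, among the 12716 MV4;11 rows that have a length, LYZ stood at ranks 525 and 533 in sgEV, 11 in both guide 1 libraries, and 11 and 12 in the guide 5 libraries. On the same scale it stood at 452 and 433 in EV and at 170 and 167 in shEZH2. In EOL-1, among 12603 rows with a length, it stood at 416 and 436 in sgEV and at 55 and 57 in sgEZH2. Per length, the rise was one from the top 600 genes in every control to the top 12 with either cMyc guide.

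Within each table the authors' own log2 columns showed the same order. Across tables they do not share a common scale, so no order between tables is read from them. EOL-1 sgEV, from deeper libraries, lay above EV here, while their CPM overlapped. LYZ read 11.25 and 11.24 with sgEV in MV4;11, 15.73 and 15.74 with guide 1, and 15.59 and 15.63 with guide 5. It read 11.49 and 11.60 with EV, 12.86 and 12.89 with shEZH2, 12.54 and 12.49 in EOL-1 sgEV, and 15.47 and 15.49 in EOL-1 sgEZH2. Between groups the lowest value of each group with a hairpin or targeting guide lay above the highest value of its own control.

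The targeted genes were checked before the contrasts were read. EZH2 fell in both EZH2 comparisons, from a mean of 74.5 ± 1.75 to 9.72 ± 0.0356 CPM in MV4;11 (log2 change -2.94, adjusted p = 2.69e-09) and from 70.5 ± 0.198 to 26.9 ± 1.14 CPM in EOL-1 (log2 change -1.39, adjusted p = 3.2e-13). MYC was higher with shEZH2 (0.25, adjusted p = 0.000564), and in EOL-1 its change was -0.04 (adjusted p = 0.354). The EZH2 transcript thus fell further in MV4;11, where the change of LYZ was smaller, and the part of depth in that was not tested. EOL-1 carried a guide, which need not lower the transcript, so these counts do not rank the depletion of the protein. With either sgcMyc guide the MYC transcript was not lower. It rose from 659 ± 1.93 CPM with sgEV to 869 ± 4.15 with guide 1 and 819.8 ± 2.51 with guide 5 (log2 change 0.36, adjusted p = 1.33e-05 over both guides). A guide that cuts a coding exon need not lower the transcript, so these counts do not check those labels. EZH2 was lower with the guides (-0.19, adjusted p = 0.0183), a call lost by DESeq2 (0.164), with spike-in scaling (0.546), without sgEV replicate 1 (0.228) or 2 (0.0546) and without guide 1 replicate 1 (0.0605) or 2 (0.0592).

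Line identity was checked against marker lists. Of 10 markers of myeloid leukaemia lines, 9 had a row in every table, among them CD33, FLT3 and SPI1, and CD34 had none. Summed, the 9 stood at 907 to 1419 CPM in MV4;11 and 599 to 695 CPM in EOL-1. Some lay near the floor, with means of 0.257 CPM for CD38 in MV4;11 EV and 1.03 CPM for MEIS1 in EOL-1 sgEV. With shEZH2, 1 of the 8 tested was higher and 4 lower, beside 13.4% and 14.2% of all genes tested. Over both guides 3 of 9 were higher and 2 lower (all genes 18.6% and 18.7%). In EOL-1 5 of 9 were higher and 0 lower (all genes 15.1% and 11.8%). Of 8 eosinophil markers, EPX, CLC, IL5RA and SIGLEC8 had no row in any table, and PRG2 and CCR3 had none in EOL-1, where RNASE2 and RNASE3 alone were measured. The T-cell genes CD3D, CD3E and CD3G had no row. NKG7, the single measured marker of T and NK cells, stood at 35.4 to 62.5 CPM in MV4;11 and 90.04 to 112 CPM in EOL-1, and it was lower with EZH2 depletion in both lines (log2 changes -0.45 and -0.23). B-cell markers summed to 2.2 to 3.96 CPM in MV4;11. In EOL-1 they summed to 3.29 to 3.63 CPM with sgEV and 6.46 to 7.69 CPM with sgEZH2. CD79A was called higher with sgEZH2 in EOL-1 (1.08, adjusted p = 3.28e-05). It was also called higher with shEZH2 in MV4;11, from a mean of 1.19 to 2.28 CPM (0.94, adjusted p = 0.0451). In MV4;11, 3 of 7 erythroid and megakaryocyte, 1 of 4 mast-cell and 2 of 6 fibroblast and epithelial markers had a row. Among them the MV4;11 controls differed in ITGA2B, with means of 0.969 CPM in EV and 24.2 in sgEV. KRT18 stood at 9.70 CPM in EV and 0.393 in sgEV, while EPOR was alike at 14.7 and 14.4. The part of these markers in the results was not tested.

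With shEZH2 in MV4;11, LYZ was higher by 1.37 ± 0.0451 on the log2 scale (SE, n = 2 against 2), a ratio of mean CPM of 2.585. This was the 177th highest of the 13591 changes fitted. Among the 10724 genes with a mean of at least 50 counts over the table's libraries, 38 had a higher change. LYZ was thus high among the changes of this comparison but not at their extreme.

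The genes of granule cargo and secreted antimicrobial proteins, called granule genes for short, moved in both directions. Of 30 listed, 17 had a row and 12 passed the filter on low counts. Of these 12, 7 rose and 3 fell, where 13.4% of all genes tested rose and 14.2% fell. Their median log2 change was 0.21, beside 0.00 for all genes tested, and none reached the change of LYZ. SRGN, the proteoglycan that packs granule proteins, rose from 729 and 782 CPM to 971 and 970.3 (log2 change 0.36 ± 0.0423, adjusted p = 8.51e-05). PRTN3, the serine proteinase of azurophil granules, rose from 715 and 761 CPM to 855 and 882 (0.24 ± 0.0422, adjusted p = 0.00178). RNASE6, a secreted antimicrobial ribonuclease, fell from 14.7 and 13.9 CPM to 5.96 and 5.48 (-1.32 ± 0.122, adjusted p = 1.59e-05). CHI3L1, a secreted chitinase-like lectin, fell from 5.99 and 5.62 CPM to 0.683 and 0.504 (-3.27 ± 0.26, adjusted p = 5.27e-06). With spike-in scaling 2 granule genes rose and 3 fell, so those that rose no longer outnumbered those that fell. All genes split into 805 higher and 1407 lower with that scaling.

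Other genes of monocytes and macrophages mostly went the other way from LYZ. Of 23 tested, 4 rose and 15 fell, with a median of -0.37. FCGR1A, the high-affinity IgG receptor, fell from 76.4 and 83.9 CPM to 25.3 and 27.8 (-1.59 ± 0.0716, adjusted p = 8.46e-08), and its near-identical copies make its count uncertain. AIF1, an actin-binding protein of macrophages, fell from 124 and 143 CPM to 68.6 and 74.8 (-0.90 ± 0.0749, adjusted p = 1.87e-05). CCR2, the chemokine receptor of classical monocytes, rose from 29.4 and 30.2 CPM to 46.2 and 45.0 (0.61 ± 0.0639, adjusted p = 3.82e-05). LYZ was thus higher in libraries where most measured monocyte genes that changed were lower. By DESeq2, 1 of these monocyte genes rose and 11 fell, beside 905 higher and 939 lower among all genes.

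Lysosomal genes, which share the compartment that holds lysozyme in macrophages, also fell more often than they rose: of 27 tested, 5 were higher and 14 lower, with a median of -0.15. The cathepsins CTSZ (-1.27 ± 0.0623, adjusted p = 1.6e-07) and CTSB (-0.94 ± 0.0519, adjusted p = 3.6e-07) fell, and the membrane protein LAMP2 fell by 0.92. Without shEZH2 replicate 1 the count was 3 higher and 9 lower. Of 20 tested genes of peptidoglycan sensing, 3 rose and 4 fell, with a median of 0.06, shares close to those of all genes tested. By DESeq2 2 rose and 2 fell, beside 905 higher and 939 lower among all genes. The receptors TLR2 (0.56 ± 0.0443, adjusted p = 5.27e-06) and NOD2 (0.65 ± 0.0986, adjusted p = 0.000591) rose, while TLR1, the partner of TLR2, fell (-1.45).

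Of 20 tested myeloid transcription factors, 5 rose and 2 fell, where 13.4% of all genes tested rose and 14.2% fell. Their median was 0.04, and 1 exceeded the change of LYZ. DESeq2 called 2 higher and 1 lower, beside 905 higher and 939 lower among all genes. IRF4, with a change of 1.85 by DESeq2 beside 1.37 for LYZ, was among those that rose. Its call was lost by DESeq2 (adjusted p = 0.305), with spike-in scaling (0.0537) and without the filter on low counts (0.0589). It was also lost when any single library of this comparison was left out (changes of 1.59 to 2.07). CEBPD, a C/EBP factor of late myeloid cells, rose from 64.9 and 72.2 CPM to 115 and 117 (0.76 ± 0.0583, adjusted p = 3.89e-06). IRF8, a factor of monocyte commitment, rose from 481 and 479.5 CPM to 705 and 699.7 (0.55 ± 0.0368, adjusted p = 1.4e-06). SPI1 (PU.1), the master factor of the myeloid lineage, read 202 and 216 CPM with EV and 208 and 221 with shEZH2 (0.04 ± 0.0479, adjusted p = 0.601). CEBPA read 325 and 338 CPM with EV and 312 and 329.9 with shEZH2 (-0.05 ± 0.0426, adjusted p = 0.451). Without shEZH2 replicate 1 the factors that changed were 3 higher and 1 lower, and without replicate 2 they were 2 and 2.

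With the cMyc guides, LYZ was higher by 4.50 ± 0.0538 on the log2 scale over both guides (n = 2 libraries with sgEV and 4 with a guide). This was the 29th highest of 13948 changes. Among the 10813 genes with a mean of at least 50 counts over the table's libraries, 3 had a higher change.

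By guide, the rise was 4.55 ± 0.0562 with guide 1 and 4.44 ± 0.0559 with guide 5, ratios of mean CPM of 23.5 and 21.7. Both guides were set against the same 2 sgEV libraries, so these are not independent measurements of the rise. The guides themselves differed by -0.11 ± 0.0471 (guide 5 minus guide 1), a ratio of 1.08. The libraries of the guides did not overlap in CPM, with a gap of 221 CPM between the nearest 2. Scaled by spike-ins, the difference was -0.05. LYZ was thus nearly as high with one guide as with the other, and the small gap between them moved with the scaling.

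The granule list rose with LYZ here. Of 16 members tested, 14 rose and 1 fell, where 18.6% of all genes tested rose and 18.7% fell, and the median was 1.16 beside 0.00 for all genes. SRGN rose from 1155 CPM in both sgEV libraries to 5831 and 5939 with guide 1 and to 5002 and 5651 with guide 5 (2.28 ± 0.0589, adjusted p = 2.7e-11). RNASE2, the eosinophil-derived neurotoxin, rose from 60.0 and 56.9 CPM to 177 and 181 with guide 1 and to 182 and 169.6 with guide 5 (1.60 ± 0.0517, adjusted p = 1.73e-10). PRTN3 rose from 371 and 381 CPM to 827 and 861 with guide 1 and to 867 and 940.5 with guide 5 (1.22 ± 0.0475, adjusted p = 1.15e-09). S100A9, a calcium-binding alarmin of neutrophils and monocytes, lay at 0.075 and 0.0749 CPM with sgEV, 1 count in each library, and at 13.2 and 13.02 CPM with guide 1 and 12.2 in both guide 5 libraries. Its fitted change rests on the prior count at so low a control level and is not given. The split of genes called was 2591 higher and 2614 lower, and 3136 higher and 1169 lower with spike-in scaling, which moved the median change of all genes by 0.12.

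Monocyte genes also rose with the guides, 16 of 23 tested, with 3 that fell and a median of 0.56. CD36, a scavenger receptor, rose from 23.8 and 24.3 CPM to 90.9 and 83.2 with guide 1 and to 81.8 and 74.4 with guide 5 (1.78 ± 0.0705, adjusted p = 1.31e-09). CD68, a glycoprotein of macrophage lysosomes, rose by 1.32, and CSTA, a cystatin, fell by 0.51. Of 27 lysosomal genes tested, 21 rose and 2 fell, with a median of 0.41. GRN, the progranulin precursor, rose from 291 and 306 CPM to 756 and 783 with guide 1 and to 679 and 715 with guide 5 (1.30 ± 0.0451, adjusted p = 3.53e-10). PSAP, the precursor of the saposins, rose by 1.03 ± 0.0498 (adjusted p = 8.24e-09). No lysosomal or monocyte gene tested reached the change of LYZ, while S100A9 and S100A8 of the granule and antimicrobial list exceeded it, S100A8 from 0.225 CPM in both sgEV libraries.

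Of 21 tested genes of peptidoglycan sensing, 11 rose and 2 fell with the guides, with a median of 0.22. TLR2 rose from 152 CPM in both sgEV libraries to 251 and 249.5 with guide 1 and to 223 and 224 with guide 5 (0.64 ± 0.0388, adjusted p = 6.97e-08). By DESeq2, 6 of these sensing genes rose and 2 fell, beside 1635 higher and 1584 lower among all genes. Of 21 myeloid transcription factors, 12 rose and 1 fell, with a median of 0.15. IRF8 rose from 359.9 and 360.4 CPM to 583 in both guide 1 libraries and to 571.5 and 559 with guide 5 (0.67 ± 0.0386, adjusted p = 4.27e-08), and CEBPD rose by 0.84 ± 0.0564 (adjusted p = 1.85e-07). GATA2, a factor of progenitors, mast cells and eosinophils, fell from 22.3 CPM in both sgEV libraries to 8.95 and 8.81 with guide 1 and to 10.4 and 8.28 with guide 5 (-1.29 ± 0.0992, adjusted p = 6.23e-07).

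Between the guides, 1 member of the granule, monocyte and transcription factor lists each was lower with guide 5, and no member of any list was higher, where 0.0789% of all genes tested were higher and 0.33% lower. They were RNASE6 (-0.44, adjusted p = 0.0195), NCF1 of the phagocyte oxidase (-0.53, adjusted p = 0.00624) and IRF4 (-0.99, adjusted p = 0.00521). These 3 calls were lost with spike-in scaling (adjusted p = 0.257, 0.184 and 0.104) and when either guide 1 library was left out. Without guide 1 replicate 1 the adjusted p was 0.256 for RNASE6, 0.133 for NCF1 and 0.0689 for IRF4, and without replicate 2 it was 0.286, 0.123 and 0.109. Left out in turn, the guide 5 libraries moved the counts of list members called upwards. The number of all genes called moved upwards as well, so this is no result about the lists. The call of RNASE6 was also lost without sgEV replicate 1 (0.0932) or 2 (0.105). NCF1 has near-identical pseudogene copies, so its count is uncertain.

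In EOL-1, LYZ was higher by 3.05 ± 0.0349 on the log2 scale with sgEZH2 (n = 2 against 2), a ratio of mean CPM of 8.27. This was the 77th highest of 13890 changes. Among the 11155 genes with a mean of at least 50 counts over the table's libraries, 24 had a higher change. The change in EOL-1 thus lay between those with shEZH2 and with the cMyc guides in MV4;11.

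All 16 granule genes tested in EOL-1 rose with LYZ, where 15.1% of all genes tested rose and 11.8% fell, and their median was 1.13 beside 0.01 for all genes. PRTN3 rose from 4.02 and 4.13 CPM to 33.7 and 35.9 (3.09 ± 0.0853, adjusted p = 5.36e-15). MPO, the peroxidase of azurophil granules, rose from 18.3 and 18.9 CPM to 59.1 and 61.5 (1.70 ± 0.0551, adjusted p = 5.92e-14). SRGN rose from 167 and 166 CPM to 398 and 409.9 (1.28 ± 0.0319, adjusted p = 1.7e-15). Between the lines, MPO went opposite ways with EZH2 depletion: it fell by 0.51 with shEZH2 in MV4;11 by edgeR (adjusted p = 0.0088), a call that DESeq2 did not make (0.154).

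Monocyte genes rose as well, 21 of 24 tested, with 1 that fell and a median of 0.84. CSF1R, the receptor of the macrophage growth factor, rose from 2.27 and 3.05 CPM to 36.9 and 35.6 (3.76 ± 0.1, adjusted p = 3.73e-15). CCR2 rose from 11.2 and 11.5 CPM to 87.2 and 88.0 (2.95 ± 0.0556, adjusted p = 5.2e-17), and CD36 from 8.92 and 9.56 CPM to 59.2 and 60.4 (2.69 ± 0.0632, adjusted p = 9.84e-16). Of the 24, 3 exceeded the change of LYZ: CSF1R, MNDA and CX3CR1, the last from a mean of 0.0365 CPM in the control. The 1 member that fell, VCAN, a matrix proteoglycan (-0.24), was not called by DESeq2 (adjusted p = 0.143), without sgEV replicate 1 (0.0508) or without sgEZH2 replicate 2 (0.104).

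Of 28 lysosomal genes tested in EOL-1, 23 rose and 1 fell, with a median of 0.27. CTSZ rose by 0.69 ± 0.0409 (adjusted p = 3.65e-10), GRN by 0.63 ± 0.0325 (adjusted p = 5.44e-11) and PSAP by 0.52 ± 0.0307 (adjusted p = 2.94e-10). Of 21 genes of peptidoglycan sensing, 11 rose and none fell, with a median of 0.14. NOD2 rose from 2.05 and 1.77 CPM to 6.69 and 6.45 (1.79 ± 0.156, adjusted p = 7.62e-08). By DESeq2, 7 of these sensing genes rose, beside 1122 higher and 748 lower among all genes. Of 20 myeloid transcription factors, 9 rose and 3 fell, with a median of 0.11. IRF8 rose from 306 and 302 CPM to 446 and 439.7 (0.54 ± 0.0305, adjusted p = 1.68e-10), and CEBPA from 308 and 325 to 402 and 391 (0.33 ± 0.0333, adjusted p = 6.01e-07). FOS, an AP-1 subunit, fell by 0.38. By DESeq2 and without sgEV replicate 1, 6 of these factors rose and 1 fell.

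**Figure D2:**
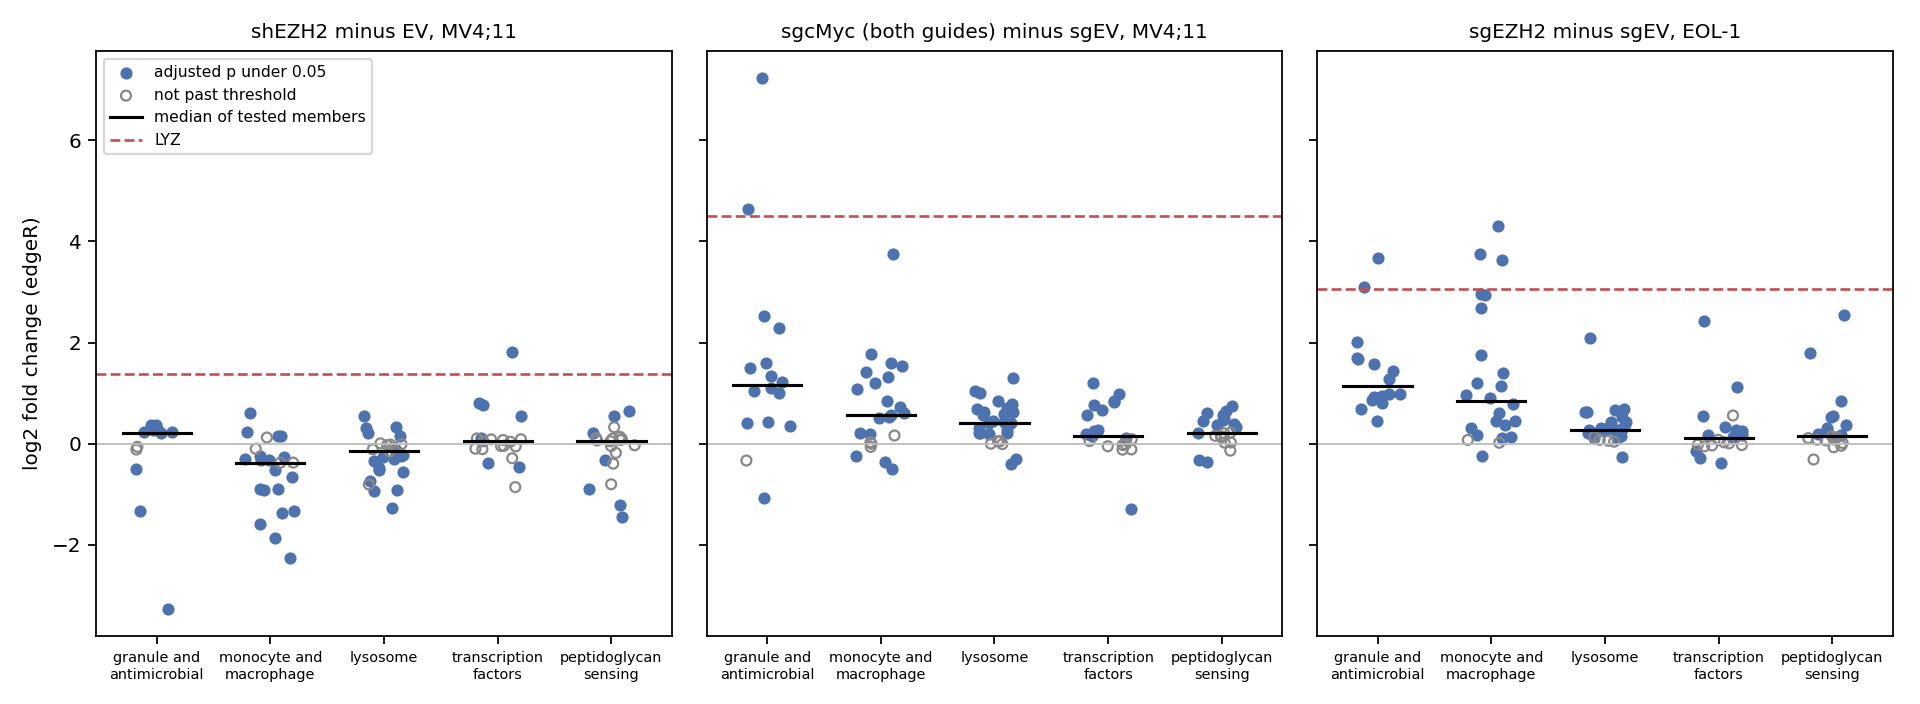
log2 fold changes of the tested members of 5 gene lists (columns) in 3 comparisons (panels), by edgeR. Filled points passed an adjusted p of 0.05, open points did not, the short black line is the median of the tested members, and the dashed red line is the change of LYZ (1.37, 4.50 and 3.05). The point at the top of the sgcMyc panel is S100A9, whose control level is 1 count per library.

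Read across the 3 comparisons, LYZ was higher in each, while the lists around it did not keep 1 direction. Granule genes had medians of 0.21, 1.16 and 1.13, and monocyte genes had -0.37, 0.56 and 0.84. Lysosomal genes had medians of -0.15, 0.41 and 0.27. IRF8 rose in all 3 comparisons by similar amounts of 0.55, 0.67 and 0.54, while the rise of LYZ ranged from 1.37 to 4.50. In MV4;11 with shEZH2, LYZ was higher while the markers CSF1R (0.12, adjusted p = 0.164) and CD36 (-0.38, adjusted p = 0.071) did not pass the threshold.

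Few genes rose strongly in all 3 comparisons, whose control libraries are all different. Of 12421 genes tested in each, 186 (1.5%) were called higher in every one, LYZ included, and 5 (0.0403%) rose by at least 2-fold in every one. Besides LYZ these were F13A1, BST1, FAM198B and STOX2, a group singled out after its values were seen. F13A1, the A subunit of coagulation factor XIII and a monocyte product, rose by 1.53, 3.03 and 1.94. BST1, a surface ADP-ribosyl cyclase of myeloid cells, rose by 1.47, 2.33 and 2.01. STOX2 rose by 1.04, 1.12 and 1.63. FAM198B held 3 and 0 counts in the EV libraries and 19 and 17 with shEZH2, so its fold there is not given. The counts behind these changes were unequal: the lowest mean count in a group with the hairpin or a targeting guide was 8025 for LYZ, 292.5 for F13A1, 62.5 for STOX2, 36 for BST1 and 18 for FAM198B.

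The genes whose pattern was most like that of LYZ were sought by the Euclidean distance between 4 log2 fold changes: shEZH2, guide 1, guide 5 and EOL-1 sgEZH2. Those compared were 9682 genes tested in every fit with a mean of at least 50 counts in the higher group of each comparison. In order, the 8 nearest were CES1 (distance 1.66), MNDA (2.36), F13A1 (2.37), MS4A3 (2.92), AOAH (3.65), SULT1B1 (3.66), SRGN (3.74) and NAV3 (3.75). Both guide changes use the same sgEV libraries, which gives the cMyc comparison more weight. With the guides merged into 1 value, 7 of the 8 were chosen again. By Pearson correlation over the 14 libraries, which share tables and controls, 3 of the 8 were, CES1, SRGN and AOAH. The correlation used log levels centred on each gene's mean within its table, so differences in level between tables did not enter.

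CES1, a carboxylesterase of monocytes, macrophages and liver, was nearest by both measures, with a correlation of 0.997 between centred log levels over 14 libraries. It stood at 20.1 and 21.01 CPM with EV and at 35.6 and 36.1 with shEZH2. It stood at 11.2 and 12.1 CPM with sgEV, at 144 and 149 with guide 1 and at 131 and 139 with guide 5. In EOL-1 it rose from 9.47 and 9.92 CPM to 41.6 and 45.8. Its log2 changes were 0.80, 3.65, 3.53 and 2.17, each below that of LYZ in the same comparison.

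MNDA, a nuclear antigen of myeloid cells, was second by distance but went the other way with shEZH2. There it read 4.43 and 3.83 CPM with EV and 2.92 and 2.33 with shEZH2 (-0.65, adjusted p = 0.0421), a call lost by DESeq2 (0.354), without EV replicate 1 (0.149) and without shEZH2 replicate 2 (0.239). With guide 1, guide 5 and in EOL-1 it rose by 3.71, 3.80 and 3.63, from only 0.375 and 0.674 CPM with sgEV and 0.329 and 0.393 in EOL-1 sgEV, and its place near LYZ rests on these low controls. MS4A3, a membrane protein of granulocyte and monocyte progenitors, rose by 0.94, 2.59, 2.33 and 3.07, and in EOL-1 it started from 2.997 and 2.23 CPM. AOAH, which deacylates bacterial lipopolysaccharide, rose with the guides (2.47 and 2.11) and in EOL-1 (1.25). Its change of 0.82 with shEZH2 rested on 2.31 and 1.72 CPM with EV. The call of AOAH there was lost by DESeq2 (adjusted p = 0.266) and with spike-in scaling (0.0664). It was also lost without EV replicate 2 (change 0.62) or shEZH2 replicate 1 (change 0.72).

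SULT1B1, a sulfotransferase, and NAV3, a neuron navigator protein, were like LYZ in MV4;11 more than in EOL-1. SULT1B1 rose by 1.12 with shEZH2, from 2.12 and 2.18 CPM with EV. That call was lost by DESeq2 (adjusted p = 0.0503) and without shEZH2 replicate 1 (change 0.83). With the guides SULT1B1 rose by 3.0 and 2.60, against 0.31 in EOL-1. The EOL-1 call was lost by DESeq2 (adjusted p = 0.382) and with plain library totals (0.0612). It was also lost when any single EOL-1 library was left out (changes of 0.24 to 0.37). NAV3 rose by 0.89 with shEZH2, by 2.71 and 2.60 with the guides and by 0.39 in EOL-1. None of the 8 matched the rise of LYZ with the guides.

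**Figure D3:**
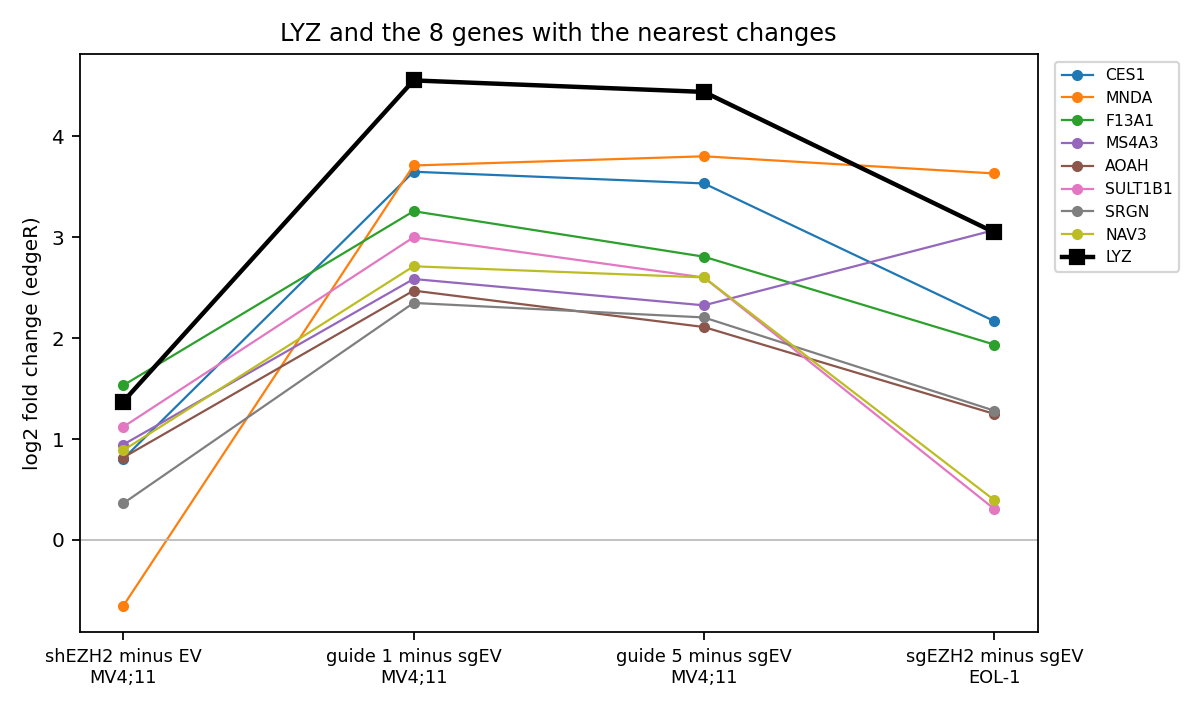
log2 fold changes (edgeR) of LYZ (black squares) and of the 8 genes nearest to it over the 4 contrasts on the horizontal axis. LYZ lies above all 8 with guide 1 (4.55) and guide 5 (4.44), F13A1 (1.53) lies above it with shEZH2, and MNDA (3.63) and MS4A3 (3.07) lie above it in EOL-1.

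The genes beside LYZ on its chromosome changed far less than LYZ, and those that changed were higher. In RefSeq gene order its 4 protein-coding neighbours on one side are CPSF6, the gene named CPM, MDM2 and SLC35E3, and on the other YEATS4, FRS2, CCT2 and LRRC10. LRRC10 had no row, and the other 7 were tested. With shEZH2 3 of the 7 rose, with the cMyc guides 3 and in EOL-1 2, and none fell in any of these, beside the shares of all genes given above. The highest change among them was 1.04, against 4.50 for LYZ in the same comparison.

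Next to LYZ stand CPSF6, a factor of mRNA 3' processing, and YEATS4, a chromatin reader, and neither passed the threshold in any of the 3 comparisons. CPSF6 read 167 ± 6.34 (SD, on the CPM scale) with EV and 179.6 ± 2.67 with shEZH2 (0.11, adjusted p = 0.1), and without EV replicate 1 it passed (0.15, adjusted p = 0.00768). YEATS4 read 51.1 ± 5.93 with EV and 44.4 ± 1.02 with shEZH2 (-0.20, adjusted p = 0.0768), and it passed as lower without EV replicate 1 (-0.32, adjusted p = 0.000441) and with plain library totals (-0.23, adjusted p = 0.0392). With the guides their changes were 0.05 and 0.03, and in EOL-1 -0.04 and 0.11, where YEATS4 passed without sgEZH2 replicate 1 (0.15, adjusted p = 0.0192).

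The gene CPM, which encodes carboxypeptidase M, a surface enzyme of macrophages, moved with LYZ in direction though not in size. It rose from 38.9 and 38.7 to 49.0 and 48.7 on that scale with shEZH2 (0.33 ± 0.0595, adjusted p = 0.00172), a call lost with spike-in scaling (0.0518). It rose from 34.4 and 33.9 to 77.1 and 72.3 with guide 1 and to 70.4 and 61.3 with guide 5 (1.04 ± 0.07, adjusted p = 1.88e-07). In EOL-1 it rose from 11.4 and 10.5 to 16.5 and 17.5 (0.63 ± 0.0823, adjusted p = 1.25e-05). MDM2, the p53 ubiquitin ligase, rose by 0.42, 0.25 and 0.32 in the 3 comparisons. Its call with the cMyc guides was lost without sgEV replicate 1 (0.20, adjusted p = 0.0609). The other 2 calls among the neighbours were CCT2, a chaperonin subunit, with shEZH2 (0.20) and SLC35E3 with the guides (0.42). That of CCT2 was lost with spike-in scaling (adjusted p = 0.16) and without shEZH2 replicate 2 (0.0665). That of SLC35E3 was lost by DESeq2 (0.204), without sgEV replicate 1 (0.0911) or 2 (0.176) and without guide 1 replicate 2 (0.08).

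**Figure D4:**
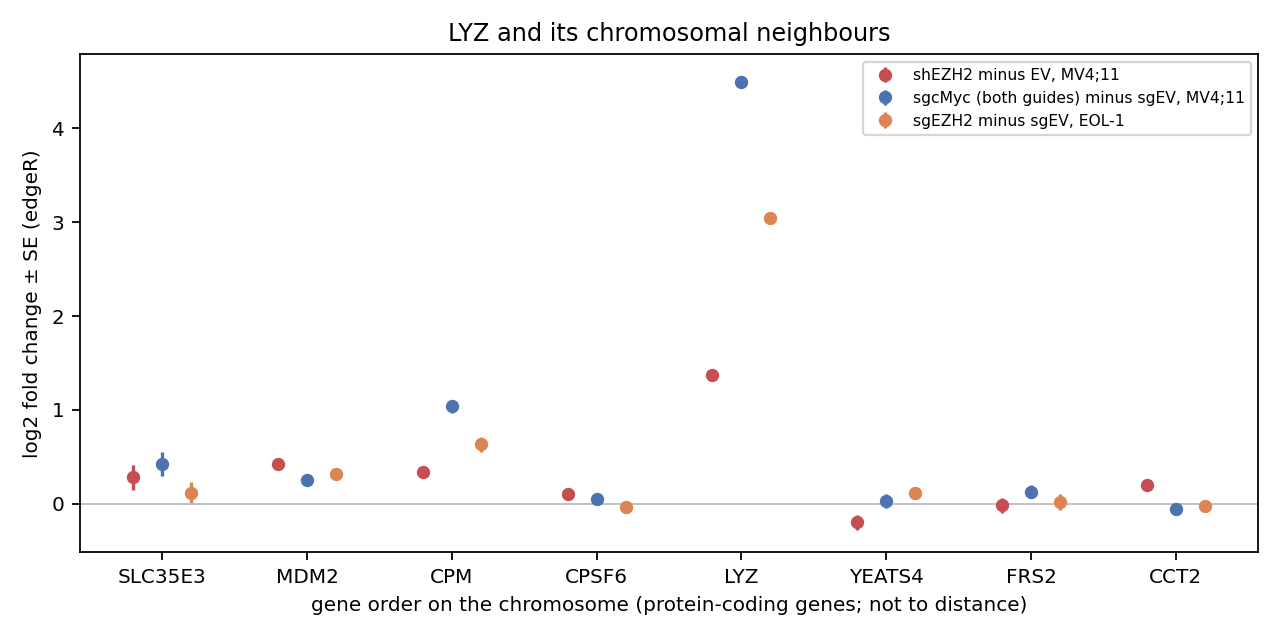
log2 fold changes ± SE (edgeR) of LYZ and the 7 measured protein-coding neighbours, in gene order and not to distance, in 3 comparisons. LYZ stands at 1.37, 4.50 and 3.05, and the neighbours lie between -0.20 and 1.04.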

How the data were processed

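Per the file headers, each of the 3 tables holds a raw and a normalised column per library. The raw columns are estimated counts deposited by the authors, and the normalised ones are log2 values made by the authors. RSEM, DESeq and the build hg19 stand in the submitters' processing notes, and versions, annotation and strand use are not stated there. An annotated antisense gene overlaps the last exon of LYZ, and its reads cannot be told apart from those of LYZ. Columns carry shorter names than the sample titles and were matched by comparison, target, guide and replicate. The 56 spike-in rows of each MV4;11 table stayed out of library sizes, and 18 rows per table with a date for a symbol were not named.

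Counts were rounded and fitted per table with edgeR 4.0.16 in R 4.3.3: filterByExpr, TMM, robust quasi-likelihood test, Benjamini-Hochberg adjustment over all genes tested, threshold 0.05. The biological coefficient of variation lay between 0.0257 (EOL-1) and 0.0422 (sgcMyc). Alternatives used DESeq2 1.42.0, limma 3.58.1 on the deposited log2 values, spike-in scaling, other filters and left-out libraries. The scripts were tested on simulated data. LYZ, the 6 gene lists and the 7 marker lists were chosen with earlier results of these data known. The genes named are LYZ, EZH2, MYC, up to 3 members per direction of each list with the smallest p, the 8 genes most like LYZ and its neighbours. Other members are named for comparison. Transcript lengths (longest GENCODE 29 transcript of a symbol) matched 83.8 to 84.6% of rows. No promoter or protein sequence of LYZ was used here.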

Additional observations from a re-analysis of the deposited data

Results flagged for a closer look

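LYZ was higher with EZH2 depletion in both lines, but 16 of the 71 named genes examined were called in opposite directions by it in MV4;11 and in EOL-1. That is 22.5% of them, beside 4.68% of the 12632 genes tested in both fits. The named genes were picked for small p-values in each direction, so the larger share is no result about them. The interaction was fitted in 1 edgeR model over both EZH2 tables, added after the data were seen. Because the 16 were picked for opposite calls, its values are given as a description with no p. The values that follow are the EOL-1 change minus the MV4;11 change on the log2 scale. The lines also differ in the tool of depletion (hairpin or guide), in the fall of the EZH2 transcript and in sequencing depth. None of these can be told apart from the line.

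Of 16 genes, 15 fell with shEZH2 in MV4;11 and rose with sgEZH2 in EOL-1. Among granule genes the difference was 2.19 for MPO, 1.99 for RNASE6 and 6.92 for CHI3L1, whose EOL-1 control held 0.11 and 0.0327 CPM. Among monocyte genes it was 1.26 for AIF1, 1.13 for CD68, 2.21 for FCER1G, 2.54 for FCGR1A, 4.79 for NCF1 and 4.28 for MNDA, whose fall in MV4;11 had an adjusted p of 0.0421. Among lysosomal genes it was 1.23 for CTSB, 1.03 for CTSH, 1.95 for CTSZ and 1.17 for LAMP2. Among sensing genes it was 1.73 for SLC15A3 and 2.28 for TLR1. IGF2R, the receptor that carries enzymes to the lysosome, went the other way, with a difference of -0.49. LYZ shared the direction of the 15 genes in EOL-1 and not in MV4;11. Some of these opposite calls were lost under alternatives. DESeq2 did not call CTSH (adjusted p = 0.192), MPO (0.154) and MNDA (0.354) in MV4;11, nor FCER1G (0.12) and FCGR1A (0.208) in EOL-1. Spike-in scaling lost IGF2R (0.33) and MNDA (0.0627) in MV4;11. Without shEZH2 replicate 1 CTSH (0.116) and IGF2R (0.124) were lost. Without EOL-1 sgEV replicate 1 FCER1G (0.0707) was lost, and FCGR1A was lost without sgEV replicate 2 (0.117) or sgEZH2 replicate 2 (0.176).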

How the results depend on the processing

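LYZ was higher in each group with the EZH2 hairpin or a targeting guide than in its control under every alternative run. With spike-in scaling its log2 change was 1.32 for shEZH2, 4.61 over both guides, 4.64 with guide 1, 4.59 with guide 5 and -0.0503 between the guides, and its level was 493.6 CPM in shEZH2, 150.0 in sgEV, 3736 with guide 1 and 3608 with guide 5. With limma on the authors' log2 values it was 4.43, 4.49 and 4.37 with the guides and 2.97 in EOL-1. With TMM over all 14 libraries its level was 488.2 CPM in shEZH2, 153.7 in sgEV, 3624 and 3339 with guides 1 and 5, and 216.1 and 1773 in EOL-1 sgEV and sgEZH2. Per kilobase its mean rank was 442.5 in EV, 168.5 in shEZH2, 529 in sgEV and 426 in EOL-1 sgEV. Leaving out 1 library gave 1.31 to 1.43 for shEZH2, 4.49 to 4.51 over both guides, 4.55 to 4.56 with guide 1, 4.42 to 4.46 with guide 5, -0.13 to -0.09 between guides and 3.02 to 3.07 in EOL-1; where 1 library was left in a group, it was assumed to vary like the others. By correlation, 3 of the 8 genes most like LYZ were chosen again.

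The number of genes called, and with it the background of every list count, did depend on the settings. DESeq2 called 1844 for shEZH2 (edgeR 3760), 3219 over both guides (5205), 2624 with guide 1 (4489), 2559 with guide 5 (4354) and 1870 in EOL-1 (3738). Spike-in scaling called 2212 for shEZH2, 805 higher and 1407 lower beside 1825 and 1935, and 1 between the guides (57 with TMM). It split the calls into 2087 higher and 1015 lower with guide 1, beside 2255 and 2234, and into 2984 and 828 with guide 5, beside 2192 and 2162. Leaving out 1 library gave 2472 to 4272 for shEZH2 (lowest without shEZH2 replicate 1), 2935 to 6177 over both guides (2935 and 3013 without sgEV replicates 1 and 2), 2477 to 5758 with guide 1, 2359 to 5075 with guide 5, 9 to 874 between guides and 2589 to 3945 in EOL-1. With guide 1 it gave 2477 and 2580 without sgEV replicates 1 and 2, and 2772 and 2665 without those of guide 1. With guide 5 it gave 2359 and 2470 without the sgEV replicates. The causes were not tested. LILRB4 with guide 5 read -0.14 with TMM and 0.00542 (adjusted p = 0.965) with spike-in scaling, which shifted the median of all genes by 0.15.

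Replicate numbers did not mark pairs by the labels, and deviations of same-numbered libraries correlated by 0.20 for EV and shEZH2, -0.01 and -0.04 for sgEV with guides 1 and 5, 0.26 between the guides and 0.07 in EOL-1. A replicate block gave 4707 calls for shEZH2, 5658 over both guides, 4945 and 4839 with guides 1 and 5, 129 between the guides and 3776 in EOL-1. With the block 3 monocyte genes were lower with guide 5 than with guide 1, and with shEZH2 the neighbours CPSF6 (adjusted p = 0.0247) and YEATS4 (0.0259) passed. Depth limits genes such as S100A9 and CHI3L1, at 1 to 3 counts in a control library, more than LYZ, at 2105 counts or more.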
